A study of Brassica napus with 3 samples.

Results

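H3K4me3, the trimethylated form of lysine 4 on histone H3, was mapped along pseudochromosome 1 of the B. rapa reference in leaves of Brassica napus (canola). All peak summits whose sequence name ends in Chr1 were taken, 2771 in the control line and 3121 in the PEG1 line. Together these are 5892 of the 59136 summits that both lines carry on the 11 B. rapa pseudochromosomes, and of 136214 summits in the whole series, which also lists both lines against B. oleracea scaffolds. They make up 10.0% of the control list and 9.92% of the PEG1 list on the B. rapa reference. Position in the sequence alone chose them, and no measured value was used.

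Both lines belong to the cultivar that the labels give as L. spp. oleifera (Metzg) Sinsk. f. biennis. The control is called wild type in the protocol, PEG1 is a selected epiline, and neither was treated. The series concerns canola selected for energy efficiency and drought tolerance, and asks how the selection bears on the placement of histone marks. Leaf 4 was harvested at 26 days, after 2 weeks on agar medium and 12 days in soil. The chromatin was native: it was digested with micrococcal nuclease without crosslinking and precipitated with 2.5 ug of anti-H3K4me3 antibody. There was 1 H3K4me3 library per line, so differences between the lines are unreplicated, and the lines are compared without tests or p-values. The labels do not say whether leaves of several plants were pooled. A control-line library made without antibody was not analysed here.

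In plants H3K4me3 sits on the first nucleosomes of transcribed genes, downstream of their start sites, where it is laid down by Trithorax-type methyltransferases. It is a mark of active genes and is usually absent from silent repeats. Plant chromosomes commonly have gene-rich arms on either side of repeat-rich chromatin around the centromere, so a map of H3K4me3 summits tends to follow the gene-rich parts. B. napus is a polyploid whose A chromosomes are close to those of B. rapa and whose C chromosomes are close to those of B. oleracea. Reads of either origin could have supported a summit on the B. rapa reference. An annotation of this build was not used here, so summits are given by coordinates and not by genes.

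Positions are 1-based on the BGI pseudochromosomes version V1 of BR5307, as the sequence names state. Each summit has a score on a −log10 scale of significance, given by the authors' peak caller. The score depends on sequencing depth, which is unknown for both libraries, so scores are set against others of the same list, and the lines are compared by rank. Intervals are 95% intervals that cover counting error only. For ratios and shares between the lines they assume independent counts, which shared summits are not.

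The outermost summits of the pseudochromosome lay at nearly the same positions in both lines. The first summit lay at 1760 in the control and at 1768 in PEG1, and the last at 29552005 in the control and 29552009 in PEG1. Over this span of 29.6 Mb there were 93.8 control summits and 106 PEG1 summits per Mb. PEG1 had 1.13 times as many summits as the control (95% interval 1.07 to 1.19). The same ratio lay between 1.12 and 1.17 on pseudochromosomes 2 to 10. When as many best-scored summits were taken from each genome-wide list as the shorter list holds, the ratio on pseudochromosome 1 was 0.989 (0.938 to 1.04). Equally long lists force the lines together, so this ratio does not test the excess. The excess of PEG1 summits cannot be told apart from the greater length of its list.

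The density of summits fell into 3 parts along the sequence, which were drawn from both lines together. Counts in 59 full windows of 500 kb ran from 7 to 81 in the control, with a median of 50, and from 9 to 90 in PEG1, with a median of 57. The windows of the lines rose and fell together (Pearson's r = 0.978 over 59 windows, which share the reference sequence and its gene content). The summed count of both lines had a median of 107 per window. In 21 windows it was under 0.75 times that median. Runs of such windows were joined wherever a single higher window lay between them. The longest reached from 14500001 to 19000000, with all 9 windows under the limit, and from 20000001 to 26000000, with 8 of 12. The stretch from 14500001 to 26000000, with the 1 Mb between them, is called the middle part here. It was drawn after the profile had been seen, so its lower density is a description. The likeness of the lines in it is partly built in, since their counts were summed. Drawn from the control alone it reached from 14500001 to 26000000, and from PEG1 alone from 14500001 to 25000000.

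**Figure D1:**
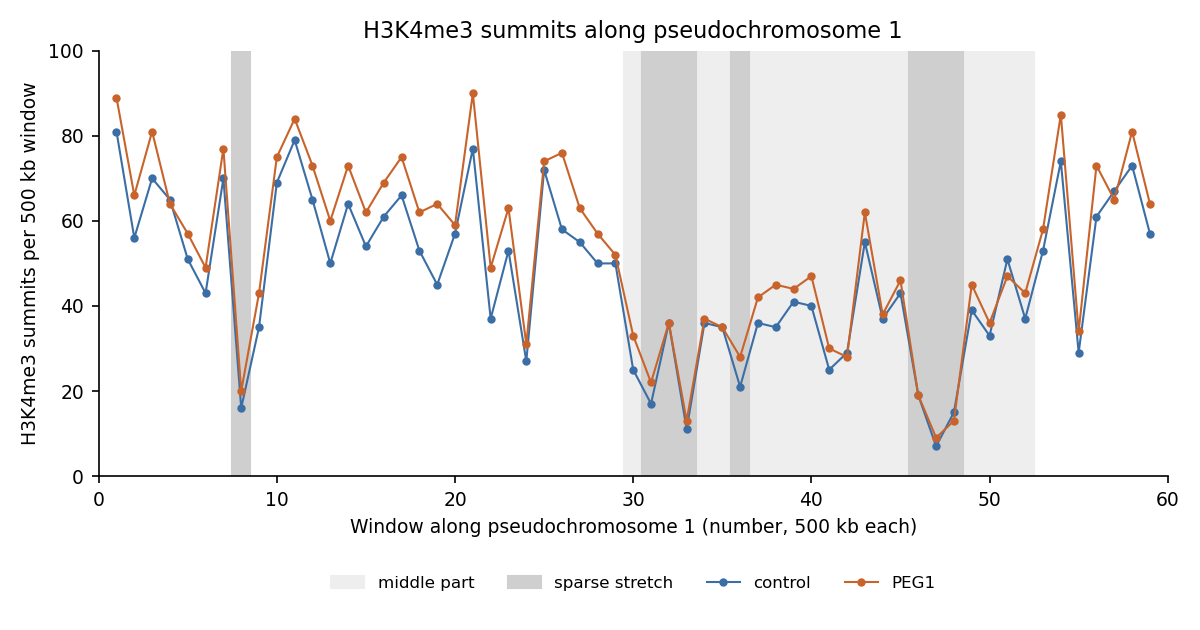
The plot shows H3K4me3 summits per 500 kb window (vertical axis) against the number of the window along pseudochromosome 1 (horizontal axis), with 1 point per window for the control (blue) and PEG1 (orange). The lines run together, with medians of 50 and 57 summits per window; light grey marks the middle part and dark grey the 4 sparse stretches, which hold 142 control and 160 PEG1 summits in 4 Mb.

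The first part, 14.5 Mb long, was densely marked. It held 1629 control and 1857 PEG1 summits, or 112 and 128 per Mb. Its windows held 16 to 81 summits in the control (median 56) and 20 to 90 in PEG1 (median 64), and 22 of its 29 windows exceeded the median of the whole pseudochromosome.

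The middle part, 11.5 Mb long, was marked at a lower density. It held 723 control and 798 PEG1 summits, or 62.9 and 69.4 per Mb. Its windows held 7 to 55 summits in the control (median 35) and 9 to 62 in PEG1 (median 36). Of its 23 windows, 1 exceeded the median of the whole pseudochromosome.

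The end part, 3.55 Mb long, returned to the density of the first. It held 419 control and 466 PEG1 summits, or 118 and 131 per Mb, and 6 of its 7 full windows exceeded the median. The first and end parts together were 1.80 times as dense as the middle part in the control (1.66 to 1.97) and 1.85 times in PEG1 (1.71 to 2.01). The middle part, which takes up 11.5 of 29.6 Mb, thus held 26.1% of the control and 25.6% of the PEG1 summits.

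The densest windows lay in the first part. They were the windows from 1 to 500000, with 81 control and 89 PEG1 summits, from 10000001 to 10500000, with 77 and 90, and from 5000001 to 5500000, with 79 and 84. At a finer scale of 100 kb, the control list was densest from 4500001 to 4600000, where it held 25 summits and PEG1 held 26. The median over 295 such windows was 10 summits in the control and 11 in PEG1. This densest stretch lay to the right of the longest gap on the pseudochromosome, which ended at 4263574 in the control.

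Within this broad pattern 4 sparse stretches stood out, made of windows whose summed count was under 0.5 times the median. Such windows were joined across a single higher window. The stretch from 15000001 to 16500000 thus takes in the higher window from 15500001 to 16000000, which held 36 control and 36 PEG1 summits. Together they were 4 Mb long. Of these, 3 were inside the middle part, from 15000001 to 16500000 (64 control and 71 PEG1 summits), from 17500001 to 18000000 (21 and 28) and from 22500001 to 24000000 (41 and 41). The fourth, from 3500001 to 4000000, cut into the first part and held 16 control and 20 PEG1 summits. The windows with the fewest summits were those from 23000001 to 23500000, with 7 control and 9 PEG1 summits, from 16000001 to 16500000, with 11 and 13, and from 23500001 to 24000000, with 15 and 13.

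Outside the sparse stretches the density was 2.90 times as high as inside them in both lines (2.45 to 3.46 in the control, 2.47 to 3.42 in PEG1). The ratio was set by the choice of windows and is a description. PEG1 held 53.0% of the summits of both lines in the sparse stretches (47.2 to 58.7) and 53.0% outside them (51.6 to 54.3). The summits inside the sparse stretches had the higher median scores. Their median score was 16.8 (13.1 to 19.5) inside and 14.4 (13.6 to 14.8) outside in the control list. In the PEG1 list it was 22.7 (18.5 to 26.2) inside and 18.5 (17.7 to 19.3) outside. In both lists the intervals overlap.

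The spacing of summits was uneven and nearly the same in shape in both lines. Neighbouring control summits lay a median of 5928.5 bp apart (5598 to 6208) and PEG1 summits 5325.5 bp (5101 to 5611), while the means were 10668 and 9471 bp. The distribution was skewed, and 30.2% of the gaps of each list exceeded its mean. Gaps over 50 kb, 65 in the control and 53 in PEG1, were 2.35% and 1.70% of all gaps. They took up 18.7% and 16.0% of the span from the first to the last summit. Of these, 49 control and 41 PEG1 gaps lay in the middle part.

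**Figure D2:**
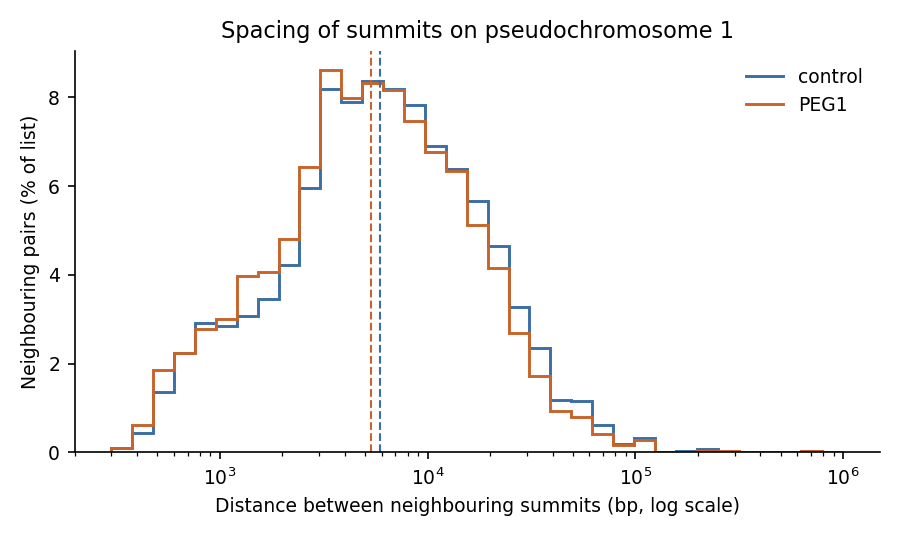
The plot shows the share of neighbouring pairs of each list (vertical axis, percent) by the distance between the neighbours (horizontal axis, bp, log scale); dashed lines mark the medians of 5928.5 bp in the control and 5325.5 bp in PEG1. Both lists have 1 broad hump around the medians, a shoulder near 1000 bp and a thin tail that ends in gaps of 674756 and 676160 bp.

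Spacing followed the parts. In the control the median spacing was 5395.5 bp in the first part (5120 to 5706), 8675 bp in the middle part (7560 to 10042) and 4713.5 bp in the end part (4218 to 5766). In PEG1 it was 4794 bp (4483 to 5094), 8030 bp (7238 to 9219) and 4456 bp (3910 to 4988). The middle part was thus more widely spaced in its typical interval as well, not only through its long gaps. It was drawn from windows with few summits, so its wider spacing and long gaps are descriptions too.

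The longest gaps stood at the same places in both lines. From 3588818 to 4263574 the control list had no summit over 674756 bp, and the PEG1 list had none from 3588805 to 4264965, over 676160 bp. This gap lay in the densely marked first part, not in the middle part. All 6 of the 100 kb windows from 3600001 to 4200000 were empty in both lines. Its right edge was set in the control by a summit that scored only 1.59. Among summits scoring at least 5 the control gap reached from 3581763 to 4264948, over 683185 bp.

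The next gap ran from 24472841 to 24717806 in the control (244965 bp) and from 24464202 to 24717882 in PEG1 (253680 bp). A gap in the end part ran from 27182200 to 27401241 in the control (219041 bp) and from 27182293 to 27401234 in PEG1 (218941 bp). The edges of this gap differed by 93 and 7 bp between the lines.

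The fourth gap differed most between the lines among the named ones. The control list was empty from 22978202 to 23148380, over 170178 bp, where PEG1 had a summit at 23026200 with a score of 6.89. That summit lay 47998 bp from the nearest control summit, the largest such distance on the pseudochromosome. It left a PEG1 gap of 122196 bp up to 23148396. The fifth gap ran from 16363729 to 16476489 in the control (112760 bp) and from 16363724 to 16476607 in PEG1 (112883 bp). Each list had 12 gaps over 100 kb, 8 of them in the middle part, and 11 of the 12 control gaps overlapped a PEG1 gap over 100 kb by at least 90% of both.

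At the short end, 214 neighbouring control pairs (7.73%) and 249 PEG1 pairs (7.98%) were under 1000 bp apart, and no pair was closer than 359 bp in the control or 361 bp in PEG1. In 112 of the 214 control pairs (52.3%) each member had a different PEG1 summit within 500 bp. In 24 pairs (11.2%) both members had the same PEG1 summit nearest to them, and in 74 (34.6%) only 1 member had a PEG1 summit. Among the PEG1 pairs the corresponding counts were 99 (39.8%), 23 (9.24%) and 104 (41.8%), and in 23 neither had a control summit.

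The pairs under 400 bp numbered 4 in the control and 3 in PEG1. In 6 of these 7 the other line had a single summit. At 26678889 and 26679248, for example, the control list had summits scoring 13.6 and 5.80, and PEG1 had 1 summit at 26678902. At 22283706 and 22284067 the PEG1 list had summits scoring 12.8 and 16.1, and the control had 1 summit at 22284103. The exception was the pair at 5496 and 5868 near the start of the sequence, which PEG1 carried at 5415 and 5896.

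Most summits of pseudochromosome 1 were found in both lines at nearly the same base. Within 150 bp of each other lay 2151 pairs of summits. Their members were always each other's nearest, which must hold because no summits of the same list were closer than 359 bp. These pairs make up 77.6% of the control list (76.0 to 79.1) and 68.9% of the PEG1 list (67.3 to 70.5). Over all 11 pseudochromosomes the shares were 79.1% and 69.5%, so pseudochromosome 1 was close to the background in both. Among pseudochromosomes 2 to 10 the control share was higher on 8 and the PEG1 share on 5. Paired summits lay a median of 28 bp apart (26 to 30), where the matching limit capped the distance at 150 bp. At 45 sites the summits coincided to the base, and 494 control summits (17.8%) had a PEG1 summit within 10 bp. The PEG1 summit was at the higher coordinate in 1079 pairs and at the lower in 1027.

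Beyond this narrow band few summits were near each other. All pairs of a control and a PEG1 summit were counted by distance, not only the nearest ones. There were 1530 pairs less than 50 bp apart, 478 from 50 to 100 bp, 140 from 100 to 150 bp and 98 from 150 to 200 bp. From 200 to 300 bp there were 59 pairs per 50 bp, from 500 to 1000 bp 42.7 and from 1000 to 2000 bp 34.4. The counts thus fell steeply up to 300 bp and slowly after that. No second rise at a nucleosome's distance was seen in steps of 50 bp, although a rise of a few pairs could not be seen above this floor.

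**Figure D3:**
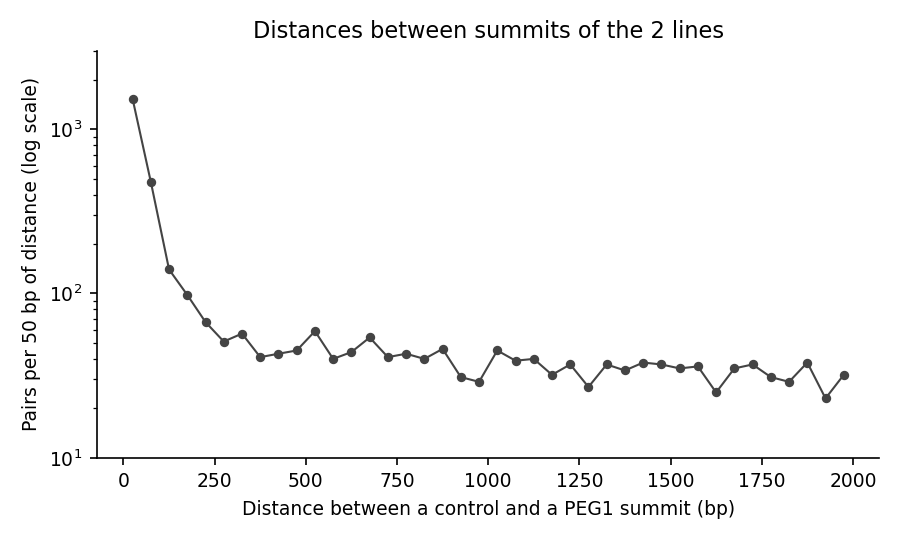
The plot shows the number of control and PEG1 summit pairs per 50 bp of distance (vertical axis, log scale) against the distance between them (horizontal axis, bp), with 1 point per 50 bp. The count falls steeply from 1530 below 50 bp to 98 between 150 and 200 bp and then more slowly, to 34.4 per 50 bp from 1000 to 2000 bp.

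Stronger summits were matched more closely. Each list was divided at the quartiles of its scores over all 11 pseudochromosomes. In the weakest class, paired control summits lay a median of 37.5 bp (33 to 44) from their PEG1 partner, and in the strongest 22 bp (19 to 25). Seen from PEG1 the medians were 38 bp (32 to 47) and 21 bp (19 to 23). The scores of paired summits were ordered alike in the lines (Spearman's rho = 0.830 over 2151 pairs). Expressed as a percentile of its own list, a paired summit differed between the lines by a median of 9.95 points, and 8 pairs differed by over 50 points.

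The best-scored summits of each list all had a partner within 66 bp. In the control they lay at 5250767 (score 87.6), 26877706 (81.3), 18570581 (80.7), 23198734 (77.8) and 2903416 (75.3). Their PEG1 partners lay at distances of 3, 16, 1, 10 and 66 bp and ranked 6, 4, 14, 17 and 10 among the PEG1 summits of pseudochromosome 1. The control summit at 23198734 stood in the window with the fewest summits of all, and its nearest control neighbour was 25724 bp away.

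In PEG1 the best-scored summits lay at 29184330 (score 109.9), 20140690 (109.8), 12719194 (100.9), 26877722 (98.4) and 21857444 (87.9). Their control partners were 29, 36, 19, 16 and 35 bp away and ranked 59, 7, 8, 2 and 33. Only the site near 26877706 was among the best 5 of both lines. Of the 100 highest-scoring control summits, 56 lay within 500 bp of a PEG1 summit from the corresponding 100. Of these top 100, 31 control and 37 PEG1 summits lay in the middle part, and of the top 50, 14 in each line. The middle part held 26.1% and 25.6% of all summits, and 28.6% and 26.5% of the strongest score class.

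Summits of one line only, more than 500 bp from any summit of the other, numbered 253 in the control and 604 in PEG1. These are 9.13% of the control list (8.11 to 10.3), against 7.76% over all pseudochromosomes, and 19.4% of the PEG1 list (18.0 to 20.8), against 18.7%. The control share on pseudochromosomes 2 to 10 ran from 6.84 to 9.58%, and the PEG1 share from 17.3 to 20.8%. Both shares on pseudochromosome 1 lay inside those ranges, but only 1 of pseudochromosomes 2 to 10 had a higher share in each line. The control interval lay above the 7.76% of all pseudochromosomes. The control summits were matched to the longer PEG1 list, and the contrast between the lines cannot be told apart from list length. With equally long lists the shares were 13.2% in the control (12.0 to 14.6) and 12.6% in PEG1 (11.4 to 13.9). Equal length forces the 2 shares together and these intervals overlap, so no order is read from them.

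**Figure D4:**
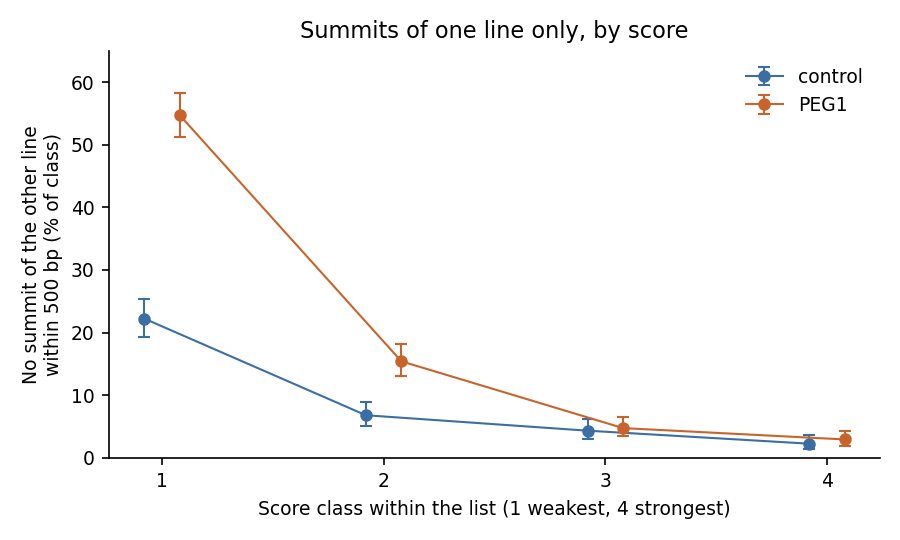
The plot shows the share of summits more than 500 bp from any summit of the other line (vertical axis, percent of the class, with 95% Wilson intervals) in 4 score classes of each list (horizontal axis, weakest to strongest), for the control (blue) and PEG1 (orange). The share falls from 22.2% to 2.26% in the control and from 54.7% to 2.93% in PEG1. Over all 11 pseudochromosomes, which are not plotted, it falls from 19.7% to 1.76% and from 53.4% to 1.83%.

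Summits of one line only were mostly weak. Their median score was 5.20 in the control and 6.28 in PEG1, against 16.3 and 23.6 for paired summits of the same lists. In the weakest class 22.2% of control summits (19.4 to 25.4) and 54.7% of PEG1 summits (51.2 to 58.2) had no counterpart. Over all 11 pseudochromosomes these shares were 19.7% and 53.4%. In the strongest class the shares were 2.26% (1.37 to 3.69) and 2.93% (1.96 to 4.36), against 1.76% and 1.83% over all 11 pseudochromosomes. On pseudochromosome 1 they came to 15 and 23 summits. Most of these had a summit of the other line not far off, since 0.452% and 0.638% of the strongest classes lacked one within 1000 bp.

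They also lay closer to a neighbour of their own list. The nearest summit of the same list was a median of 1632 bp away for control summits of one line only and 3540 bp for paired ones, and 2165 against 3216 bp in PEG1. Among control summits with a neighbour within 1000 bp, 18.5% (15.1 to 22.5) were in one line only, against 4.66% (3.22 to 6.69) of those whose nearest neighbour was 5000 to 10000 bp away. In PEG1 the shares were 30.4% (26.5 to 34.7) and 15.1% (12.4 to 18.2). Of 6 distance classes, that from 5000 to 10000 bp had the lowest share in both lines. Among the most isolated summits, with no neighbour within 20000 bp, the share was 7.32% in the control (3.40 to 15.1) and 23.1% in PEG1 (14.5 to 34.6), so in PEG1 it overlapped that of the crowded summits. The crowded summits also scored lower, with a median of 10.6 against 14.7 in the control. In PEG1 the medians were 13.6 and 19.5. The part of score in this difference was not tested.

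Summits of one line only were spread over all 3 parts of the pseudochromosome, with similar shares in each. PEG1 windows of 500 kb held 1 to 22 of them (median 10) and control windows 0 to 10 (median 4). PEG1 had more than the control in 50 of 59 windows, the control had more in 6 and the counts were equal in 3. They were 19.9% of PEG1 summits in the first part (18.2 to 21.8), 18.0% in the middle (15.5 to 20.9) and 19.3% in the end part (16.0 to 23.1). The control shares were 8.96% (7.67 to 10.4), 9.54% (7.61 to 11.9) and 9.07% (6.68 to 12.2). All of these intervals overlap within a line. In the sparse stretches the control share was 12.7% (8.17 to 19.1), against 8.96% outside them (7.92 to 10.1). The PEG1 shares were 21.9% (16.2 to 28.9) and 19.2% (17.8 to 20.6). The sparse stretches held only 18 control and 35 PEG1 summits of one line only. Their intervals overlap those outside, which does not test evenness.

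**Figure D5:**
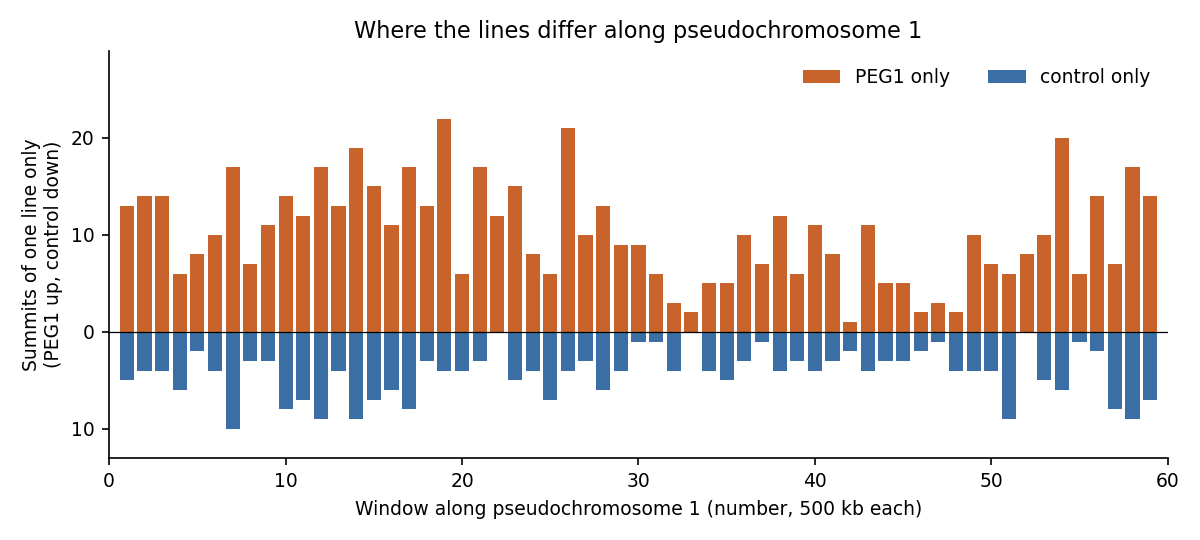
The plot shows the number of summits of one line only per 500 kb window, for PEG1 upwards and for the control downwards (vertical axis, summits), against the number of the window along pseudochromosome 1 (horizontal axis). PEG1 bars reach 22 and control bars 10 summits, and both are spread over the whole length.

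The ratio of summits between the lines was also similar across the 3 parts. PEG1 had 1.14 times as many summits as the control in the first part (1.07 to 1.22), 1.10 times in the middle (0.997 to 1.22) and 1.11 times in the end part (0.973 to 1.27). With equally long lists these ratios were 0.994, 0.981 and 0.983. PEG1 had more summits in 51 windows, fewer in 5 and equally many in 3. In the 52 windows with at least 50 summits of both lines its share ran from 48.0 to 58.7%, with an SD of 2.11 percentage points. The highest shares were in the windows from 9000001 to 9500000 (64 PEG1 and 45 control summits), from 10500001 to 11000000 (49 and 37) and from 14500001 to 15000000 (33 and 25). The lowest were from 25000001 to 25500000 (47 PEG1 and 51 control summits), from 20500001 to 21000000 (28 and 29) and from 28000001 to 28500000 (65 and 67). The counting interval of each of these 6 shares included the 53.0% of the whole pseudochromosome. These intervals assume independent counts, which shared summits are not, so the inclusion does not test evenness. In the window from 9000001 to 9500000, 22 of the 64 PEG1 summits were in one line only.

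For the 5 best-scored summits of one line only in each list, the nearest summit across the lines lay 507 to 1586 bp away. In the control they lay at 5787242 (score 43.0, nearest PEG1 summit 567 bp away), 11210981 (41.9, 829 bp), 17569645 (39.8, 693 bp), 18882931 (39.8, 1209 bp) and 7333931 (38.8, 913 bp). In PEG1 they lay at 12917989 (score 74.4, nearest control summit 514 bp away), 6827579 (54.7, 507 bp), 7341376 (50.5, 1586 bp), 11210152 (47.4, 829 bp) and 17570338 (46.7, 693 bp). At 2 sites these are the same pair seen from either side. The control summit at 11210981 faced the PEG1 summit at 11210152, and that at 17569645 faced 17570338. The lowest score among these 4 summits was 39.8, and the lines placed them 829 and 693 bp apart.

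Runs of neighbouring summits in one line only were short. In PEG1 the 604 such summits formed 486 runs, of which 96 held at least 2 summits and 15 at least 3. In the control the 253 formed 228 runs, with 22 of at least 2 and 3 of at least 3. The longest had 6 PEG1 summits, from 26902178 to 26936176 in the end part. They scored 4.57, 5.12, 4.03, 10.2, 7.51 and 3.52 in order of position. The control list had no summit from 26887204 to 26945747, over 58543 bp, and the nearest control summit to any of the 6 was 9571 bp away. Of the 6 summits, 3 scored at least 5.

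The next run held 5 PEG1 summits from 17570338 to 17605854, in a sparse stretch of the middle part. It began with the strong summit at 17570338 named above, and the other 4 scored between 5.12 and 10.9. The control list was empty from 17569645 to 17615259, over 45614 bp. A run of 4 PEG1 summits, from 8189475 to 8201541, scored 9.77, 2.35, 7.51 and 33.6. The longest control runs held 3 summits each, from 3405776 to 3409757 (best score 21.2, with 1 PEG1 summit inside it, 753 bp from its last member), from 23786152 to 23811935 (15.6) and from 26374955 to 26376449 (9.08). With 1 library per line and unknown depth, a site without the mark and a site below the peak caller's threshold cannot be told apart.

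Beside pseudochromosomes 2 to 10, pseudochromosome 1 had the least even profile. The SD of its window counts over their mean was 0.393, against 0.257 on pseudochromosome 4 and up to 0.374 on pseudochromosome 8. Windows under 0.5 times the median made up 11.9% of its windows and 0 to 6.12% of theirs. Its longest control gap of 674756 bp stood against 111752 to 418658 bp on the others. Its control density of 93.8 summits per Mb was lower than on 8 of those 9, which ran from 88.5 to 119.8 per Mb. Its median control spacing of 5928.5 bp lay inside their range of 5288 to 6864 bp. These are values of single sequences, and no test was made of a difference between them. Pseudochromosome 11 was less even still, at 0.602.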

How the data were processed

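Leaf chromatin of 2 lines was profiled by native H3K4me3 ChIP-seq with 1 library each. Per the submitters' processing notes, MACS2 (version 2.0) called the peaks; no aligner, background or filter is named in the labels or files. The authors deposited a −log10 significance score per summit; whether it is a p-value or a q-value is not stated, and depth is unknown. From these lists, summits were counted in 500 kb windows, and the last 52.0 kb were left out of windows. Summits counted as shared within 150 bp and as of one line only beyond 500 bp. Shares have Wilson intervals, window and zone shares exact binomial intervals, ratios exact conditional intervals and medians order-statistic intervals. Python 3.11.15, NumPy 2.4.6, pandas 2.3.3 and SciPy 1.17.1 were used. The code for matching and stretches was checked only on planted cases that lay inside its thresholds, which gives no error rate.

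The members, the measures and the rule for named regions were chosen with earlier results of these data known. The rule took, per list, the 5 best-scored summits, the 5 longest gaps, the 5 best-scored summits of one line only and the 3 longest runs of these, and, by summed count and by PEG1 share, the 3 highest and 3 lowest windows, with every sparse stretch. The pairs under 400 bp, the densest 100 kb and the middle part were chosen after their values were seen.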

Additional observations from a re-analysis of the deposited data

How the results depend on the processing

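Of 90 alternative values of the main results, 43 stayed within the interval of the reported value (or within 1.5 times, for lengths), 42 moved and 5 turned in direction. The 4 alternative values of the SD of the PEG1 share, which has no interval, are counted as moved. All 5 came from equally long lists, which force the lines together: the ratio of PEG1 to control summits was then 0.989 overall and 0.994, 0.981 and 0.983 in the first, middle and end parts, and the PEG1 share outside the sparse stretches was 49.7%. The cause of the longer PEG1 list was not tested. Some of the 43 values that stayed could not have moved. Matching by mutual nearest neighbours is fixed by the spacing within each list. Equally long lists leave the shorter control list whole. The control's median spacing and its density ratio of the first and end parts to the middle part then stay as they are. In the order control then PEG1, equally long lists gave 74.8% and 75.7% of summits shared, 13.2% and 12.6% in one line only and a PEG1 median spacing of 6122 bp. Summits scoring at least 5 gave 81.2% and 70.7% shared, a median spacing of 6817 and 6055.5 bp and 7.02% of control summits in one line only. At a matching distance of 50 bp 55.8% and 49.5% were shared, at 300 bp 85.3% and 75.8%, at 500 bp 90.9% and 80.6%, and at 1000 bp 95.3% and 85.6%. The median displacement was 18 bp among pairs within 50 bp and 32 bp within 300 bp. Percentages in one line only were 4.66 and 14.4 beyond 1000 bp and 2.20 and 9.93 beyond 2000 bp. Beyond 1000 bp they were 13.8 and 44.6 in the weakest and 0.452 and 0.638 in the strongest score class.

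The extent of the sparse stretches depends on how they are drawn. Their summed length was 2000 kb with windows of 1000 kb, 12500 kb below 0.75 times the median and 1500 kb below 0.33 times. The density outside over inside was 4.73 and 4.62 with windows of 200 kb, 1.98 and 2.01 below 0.75 times the median, 4.44 and 4.71 below 0.33 times, and 2.32 in the control with windows moved by 250 kb. The SD of the PEG1 share was 2.89 points in windows of 200 kb, 1.13 in windows of 1000 kb, 2.02 among summits scoring at least 5 and 1.81 with equally long lists. The middle part measured 9 to 11.5 Mb under 4 alternatives added after the data were seen. Of 20 alternative lengths of the named gaps, 18 were the same. No paired analysis was possible because each line has 1 library. For the same reason no library could be left out.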
